A study of Homo sapiens with 21 samples.

Results

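TMEM132A, MXRA8 and AMMECR1 are 3 of the 16383 genes in a table of RNA sequencing of senescent human lung fibroblasts. They were chosen by symbol from among the largest changes, other than in CDK4 itself, seen when CDK4 was knocked down and compared with non-targeting siRNA; that the combined CDK4 and CDK6 knockdown moved them too was known when they were grouped. Differences between CDK4 knockdown, alone or combined, and the non-targeting controls are therefore given as a description, with no test. All 3 genes passed the filter on low values, which left 11579 genes for testing.

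All libraries came from IMR90, a wild-type fibroblast line from human lung, and formed 7 groups of 3. A proliferating group was labelled as untreated. The other 6 groups were irradiated to make them senescent, given 5 nM siRNA with DharmaFECT at day 4 and again at day 7, and collected at day 10. Of these groups, 2 received control siRNAs without a target, NT3 and NT4 (numbered otherwise in the series description), and the others siRNA to CCND1, to CDK4, to CDK6, or to both kinases at once. The labels do not say whether 5 nM was the dose of each siRNA or the total in the combined transfection. No siRNA sequence is in the labels, so an effect of the CDK4 siRNA on its target and any effect of the same reagent elsewhere cannot be told apart. Irradiation and transfection likewise cannot be told apart in comparisons with proliferating cells.

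CDK4 and CDK6 are kinases that pair with D-type cyclins such as CCND1 and phosphorylate the retinoblastoma protein, which restrains E2F factors and the genes of cell division. Senescent cells have left the cell cycle and keep this restraint in place. TMEM132A encodes a membrane protein of the TMEM132 family that has been described as a binding partner of the endoplasmic reticulum chaperone HSPA5 and of WLS, the carrier that brings WNT proteins to the cell surface. MXRA8 encodes a cell-surface adhesion protein with immunoglobulin domains, made by fibroblasts and other mesenchymal cells, which serves chikungunya and related alphaviruses as an entry receptor. AMMECR1 encodes a nuclear protein of unsettled function whose loss is linked to a developmental syndrome with midface hypoplasia and elliptocytosis.

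In GRCh38 (GENCODE release 44), the protein-coding gene TMEM132A (ENSG00000006118) lies on the plus strand of chromosome 11, from 60924460 to 60937159. MXRA8 (ENSG00000162576) lies on the minus strand of chromosome 1, from 1352689 to 1361777, and AMMECR1 (ENSG00000101935) on the minus strand of chromosome X, from 110194186 to 110440318. Each gene has 1 value per library, which does not say which start site was used. RefSeq promoter sequences were available for MXRA8 (3 start sites) and AMMECR1 (2 start sites). For each, the 250 bases before the first listed start that overlap no GENCODE exon are shown, because the CDK4 pathway acts on promoters through E2F and cell cycle elements. The AMMECR1 window lies inside the gene, before an internal start site. Both are from GRCh38.p14 on the minus strand, MXRA8 at chr1:1361800-1362049 and AMMECR1 at chrX:110318086-110318335, and capitals mark a GC box (GGGCGG).
MXRA8: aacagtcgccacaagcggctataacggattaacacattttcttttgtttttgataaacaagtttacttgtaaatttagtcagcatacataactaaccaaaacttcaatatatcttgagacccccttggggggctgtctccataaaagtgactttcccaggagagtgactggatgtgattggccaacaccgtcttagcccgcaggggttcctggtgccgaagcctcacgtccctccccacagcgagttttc
AMMECR1: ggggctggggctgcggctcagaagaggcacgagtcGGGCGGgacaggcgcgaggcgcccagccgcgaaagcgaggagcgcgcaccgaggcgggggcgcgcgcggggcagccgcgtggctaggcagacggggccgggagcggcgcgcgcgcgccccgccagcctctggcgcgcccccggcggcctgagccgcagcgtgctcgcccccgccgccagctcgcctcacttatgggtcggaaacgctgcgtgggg
On both strands, neither window held an E2F motif (TTTCCCGC, TTTGGCGC, TTTCGCGC or TTTGCCGC), a cell cycle homology region (TTTGAA or TTCGAA) or an E-box (CACGTG). Among the first listed 250-base windows of 9346 tested genes these were present in 4.47%, 9.89% and 8.78%, respectively. A GC box was found in AMMECR1 and not in MXRA8, and in 67.1% of those windows. The share of G and C was 46.0% for MXRA8 and 80.0% for AMMECR1, against a median of 64.8%. These matches describe the letters of these windows only.

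Reads in listed genes numbered 12892442 to 21822152 per library. CDK4 served as the check of the labels: its normalised read count, a read count divided by the size factor of its library, was 105.6 to 109.9 in CDK4 knockdown and 114.7 to 122.5 in the combined knockdown, against 1157.5 to 1355.5 in the 6 non-targeting libraries. The 9 fibroblast markers examined, among them COL1A1, COL1A2, DCN, PDGFRA and THY1, were present in every library, with lowest values of 1393.3 (LUM) and above. Of 11 markers of other cell types, KRT5, SFTPC and CDH1 (epithelial), CDH5 (endothelial) and PTPRC and CD3E (white blood cells) had at most 10 reads in any library, PECAM1 17, VWF 31, CD14 39 and EPCAM 46. CD68, a lysosomal protein used as a macrophage marker, ran from 650.2 to 1588.4. It made up most of the summed white blood cell markers, which were highest in CDK4 knockdown (1494.8 to 1603.6, against 887.5 to 1414.5 in the controls and 931.0 to 1007.9 in the combined knockdown). The summed fibroblast markers were highest in the combined knockdown (681903.1 to 867109.2, against 451734.9 to 620895.8 in the other groups). The part of either in the members' values was not tested. The 6 libraries with CDK4 siRNA held 15433553 to 17044175 reads, inside the range of the others. In bulk RNA, fewer cells with a transcript and less transcript per cell cannot be told apart.

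TMEM132A was lowest in the cells that received CDK4 siRNA. Its normalised read counts were 1056.0, 836.3 and 1082.6 in CDK4 knockdown (992 ± 135, SD, n = 3) and 702.0, 595.1 and 572.6 in the combined knockdown (623 ± 69.1). They were 2938.9, 2954.8 and 2955.0 with NT3 (2950 ± 9.24) and 2201.3, 2758.0 and 2206.4 with NT4 (2389 ± 320). All 6 libraries with CDK4 siRNA lay below all 12 other irradiated libraries, which ran from 1438.2 to 2955.0. CDK6 knockdown gave 1438.2, 1814.2 and 1475.3 (1576 ± 207), and CCND1 knockdown 1896.2, 2011.2 and 2367.3 (2092 ± 246). Proliferating cells gave 1392.3, 1427.0 and 1363.2 (1394 ± 31.9). From lowest to highest mean the order was combined knockdown, CDK4 knockdown, proliferating, CDK6 knockdown, CCND1 knockdown, NT4 and NT3. In this order, CCND1 knockdown and NT4 were the only neighbours whose libraries overlapped. Of the mean in the non-targeting libraries, 37.2% was present in CDK4 knockdown and 23.4% in the combined knockdown.

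MXRA8 was also lowest with CDK4 siRNA, but its 2 lowest groups stood in the opposite order. CDK4 knockdown gave normalised read counts of 1377.0, 1350.9 and 1719.5 (1482 ± 206, SD, n = 3), and the combined knockdown 2245.0, 2081.2 and 2301.5 (2209 ± 114.4). The other irradiated libraries ran from 3107.3 to 4657.1, so none overlapped with these 6. Values were 3340.6, 3107.3 and 3473.2 with NT3 (3307 ± 185), 3872.9, 3791.5 and 3554.8 with NT4 (3740 ± 165), and 3807.2, 3596.6 and 3678.6 in CCND1 knockdown (3694 ± 106.2). CDK6 knockdown gave 4551.7, 4657.1 and 4656.9 (4622 ± 60.8), the highest of the irradiated groups. Proliferating cells were higher still, at 5410.9, 4985.5 and 5107.4 (5168 ± 219). The order from lowest to highest was CDK4 knockdown, combined knockdown, NT3, CCND1 knockdown, NT4, CDK6 knockdown and proliferating. Libraries overlapped between neighbours for CCND1 knockdown and NT4 only. CDK4 knockdown held 42.1% of the non-targeting mean, the combined knockdown 62.7% and CDK6 knockdown 131.2%.

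AMMECR1 had its highest irradiated values in CDK4 knockdown. It gave normalised read counts of 794.6, 782.5 and 646.8 there (741 ± 82.1, SD, n = 3) and 566.2, 556.9 and 546.6 in the combined knockdown (557 ± 9.82). The other 12 irradiated libraries ran from 270.2 to 502.5 and none overlapped with these 6. CDK6 knockdown was the lowest group, at 341.0, 270.2 and 300.8 (304 ± 35.5). NT3 gave 382.0, 432.8 and 405.3 (407 ± 25.4), NT4 412.9, 428.2 and 429.9 (424 ± 9.38), and CCND1 knockdown 439.2, 502.5 and 480.9 (474 ± 32.2). Proliferating cells gave 566.0, 692.8 and 679.4 (646 ± 69.7). The order from lowest to highest was CDK6 knockdown, NT3, NT4, CCND1 knockdown, combined knockdown, proliferating and CDK4 knockdown. Neighbours overlapped for NT3 with NT4, for the combined knockdown with proliferating cells, and for proliferating cells with CDK4 knockdown. CDK4 knockdown held 178.5% of the non-targeting mean, the combined knockdown 134.1% and CDK6 knockdown 73.2%.

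**Figure D1:**
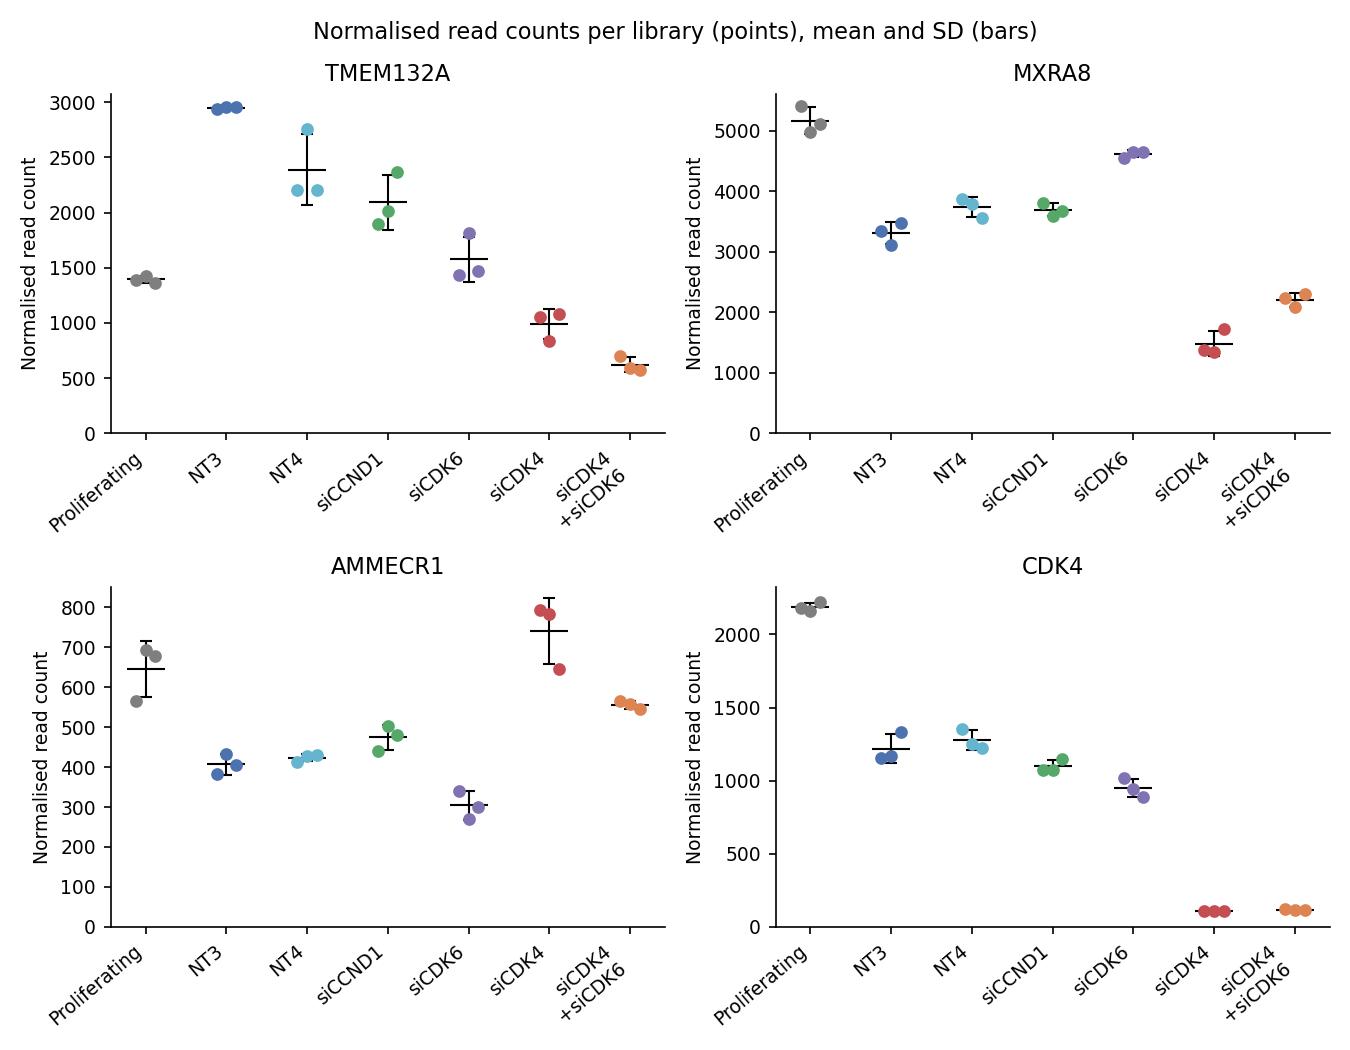
Normalised read counts (y axis, linear from 0) of TMEM132A, MXRA8, AMMECR1 and CDK4 in each of 21 libraries, by group (x axis); points are libraries, horizontal bars the mean and error bars the SD of 3 libraries. In the 6 libraries with CDK4 siRNA, TMEM132A (572.6 to 1082.6) and MXRA8 (1350.9 to 2301.5) lie below, and AMMECR1 (546.6 to 794.6) above, the other irradiated libraries.

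The 3 genes were placed among all tested genes by this complete separation of the 6 libraries with CDK4 siRNA from the other 12 irradiated libraries. Of the tested genes, 91 (0.786%) were lower without overlap, CDK4 included, and 58 (0.501%) were higher without overlap. The choice of the members used these libraries, so nothing is read from their being among them. Knockdown depth was even across the 6 libraries, with 8.46 to 9.82% of the non-targeting CDK4 mean left, while TMEM132A ranged from 21.5 to 40.6%, MXRA8 from 38.3 to 65.3% and AMMECR1 from 131.6 to 191.4% of their own non-targeting means. Replicate 3 of CDK4 knockdown was the nearest of its group to the controls for MXRA8 (48.8%) and AMMECR1 (155.8%), with 8.81% of CDK4 left. It was also the nearest for TMEM132A, at 40.6%, beside 39.6% in replicate 1.

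In the contrast that chose the genes, CDK4 knockdown against the mean of NT3 and NT4, differences are given on the scale of log2(value + 1). In this contrast 7.55% of genes were lower and 8.46% higher past the limma threshold, an adjusted p of 0.05, and 5.75% and 5.41% were lower and higher with no overlap of libraries; nothing is read from the members being among them. Genes meeting both criteria, with a mean above the median gene mean of 469.8 in the higher group, were ranked by size, which left 340 falls and 359 rises. Some genes outside this ranking fell by more than TMEM132A or rose by more than AMMECR1. TMEM132A was 1.42 lower (SE 0.10) and MXRA8 1.25 lower (SE 0.06), ranked 2 and 3 among the falls after CDK4. Next below them were TOMM70, a mitochondrial import receptor, at -1.17 (SE 0.06), the splicing factor AAR2 at -1.11 (SE 0.07) and the Golgi membrane protein GOLM1 at -1.04 (SE 0.06). AMMECR1 was 0.83 higher (SE 0.08), ranked 3 among the rises behind the procollagen protease ADAMTS2 (0.95, SE 0.08) and the RNA-binding protein IGF2BP3 (0.91, SE 0.06). The controls of these genes differed in spread. ADAMTS2 averaged 634.0 with NT3 and 1347.5 with NT4, and IGF2BP3 961.1 and 1840.8, whereas AMMECR1 averaged 406.7 and 423.7. Next below AMMECR1 were MTF1 (0.82, SE 0.11), MFHAS1 (0.77, SE 0.10) and EREG (0.76, SE 0.13).

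Whether the CDK4 siRNA moved the members to a like extent when CDK6 was also knocked down was examined in libraries that the choosing contrast did not contain, the combined knockdown against CDK6 knockdown alone. TMEM132A was lower by a log2 difference of -1.33 (SE 0.11, limma adjusted p = 2.75e-08), with 623 ± 69.1 against 1576 ± 207 (SD, n = 3 each). MXRA8 was lower by -1.07 (SE 0.07, limma adjusted p = 2.38e-09), with 2209 ± 114.4 against 4622 ± 60.8. AMMECR1 was higher by 0.88 (SE 0.10, limma adjusted p = 1.8e-06), with 557 ± 9.82 against 304 ± 35.5. All 3 libraries lay on the same side for each gene. By this test 6.94% of genes were lower and 6.05% higher, and without regard to the test 17.6% and 18.6% did not overlap. Of all tested genes, 119 were as low as TMEM132A or lower, 223 as low as MXRA8 or lower, and 54 as high as AMMECR1 or higher. That the combined knockdown moved these genes was known when they were grouped. Their direction, p-values and ranks here are therefore not independent evidence. In this comparison CDK4 itself differed by -3.00 (SE 0.07).

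**Figure D2:**
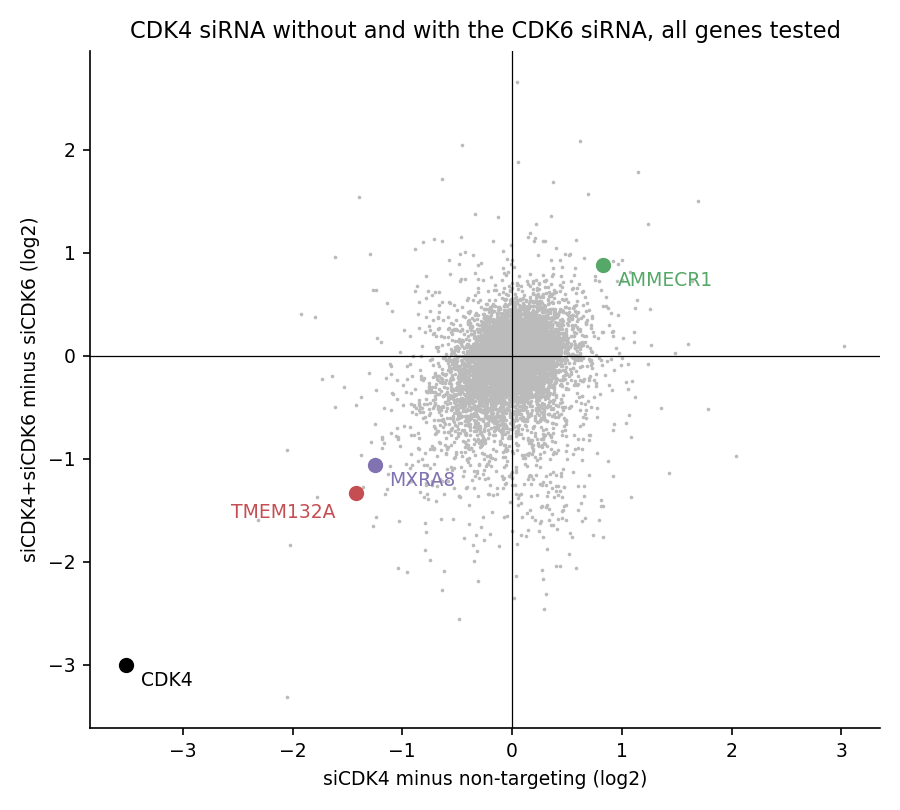
For each of 11579 tested genes (points), the log2 difference of CDK4 knockdown from the non-targeting controls (x axis) and of the combined knockdown from CDK6 knockdown (y axis), which share no library. TMEM132A (-1.42, -1.33) and MXRA8 (-1.25, -1.07) lie at the lower left near the diagonal and AMMECR1 (0.83, 0.88) at the upper right, while most genes lie near 0 on both axes.

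Across the 11579 tested genes these 2 differences, which share no library, had a Pearson correlation of 0.22; genes are not independent replicates. In both comparisons, 247 genes (2.13%) were lower and 226 (1.95%) higher past the limma threshold. At least as low as MXRA8 on both axes were 10 genes, counting MXRA8, TMEM132A and CDK4, and at least as high as AMMECR1 on both were 7, counting AMMECR1. Had the single-siRNA differences simply added on the log2 scale, the combined knockdown would have departed from their sum by 0; it departed by 0.09 for TMEM132A (SE 0.15, 95% confidence interval -0.21 to 0.39), 0.19 for MXRA8 (SE 0.10, -0.01 to 0.39) and 0.05 for AMMECR1 (SE 0.13, -0.22 to 0.31). No test is given for it, since the choosing contrast is one of its terms. These intervals reach 0.39 for TMEM132A and MXRA8. They do not allow for the choice of the genes by that contrast, so they are a description only.

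Against the non-targeting controls, CDK6 knockdown lowered TMEM132A by -0.76 (SE 0.10, limma adjusted p = 1.88e-06) and AMMECR1 by -0.45 (SE 0.08, limma adjusted p = 0.000163), and raised MXRA8 by 0.40 (SE 0.06, limma adjusted p = 3.41e-05). All 3 CDK6 knockdown libraries lay outside the range of the 6 controls for each gene, as was so for 14.1% of genes on the lower and 14.4% on the higher side. By the same test 20.8% of genes were lower and 21.1% higher in CDK6 knockdown. Of the tested genes, 0.898% were lower with CDK4 siRNA in both comparisons above and higher in CDK6 knockdown, as MXRA8 was, and 0.337% were lower in all of these, as TMEM132A was. Genes higher with CDK4 siRNA in both and lower in CDK6 knockdown, as AMMECR1 was, made up 0.613%, and those higher in all 0.561%. The CDK4 contrast enters these shares, so nothing is read from the members being among them. The comparison shares its controls with the choosing contrast, so its p-values are not independent of the choice, each gene's values are given side by side and no relation between them is drawn. CDK4 itself averaged 950 ± 63.0 in CDK6 knockdown, 76.1% of the non-targeting mean.

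The combined knockdown stood between the single knockdowns for MXRA8 and AMMECR1, and below both for TMEM132A. Relative to CDK4 knockdown, it differed by -0.67 for TMEM132A (SE 0.11), by 0.58 for MXRA8 (SE 0.07) and by -0.41 for AMMECR1 (SE 0.10), given as a description because the CDK4 libraries chose the genes. CDK6 was at 20.6% of its non-targeting mean in the combined knockdown and at 16.4% in CDK6 knockdown.

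**Figure D3:**
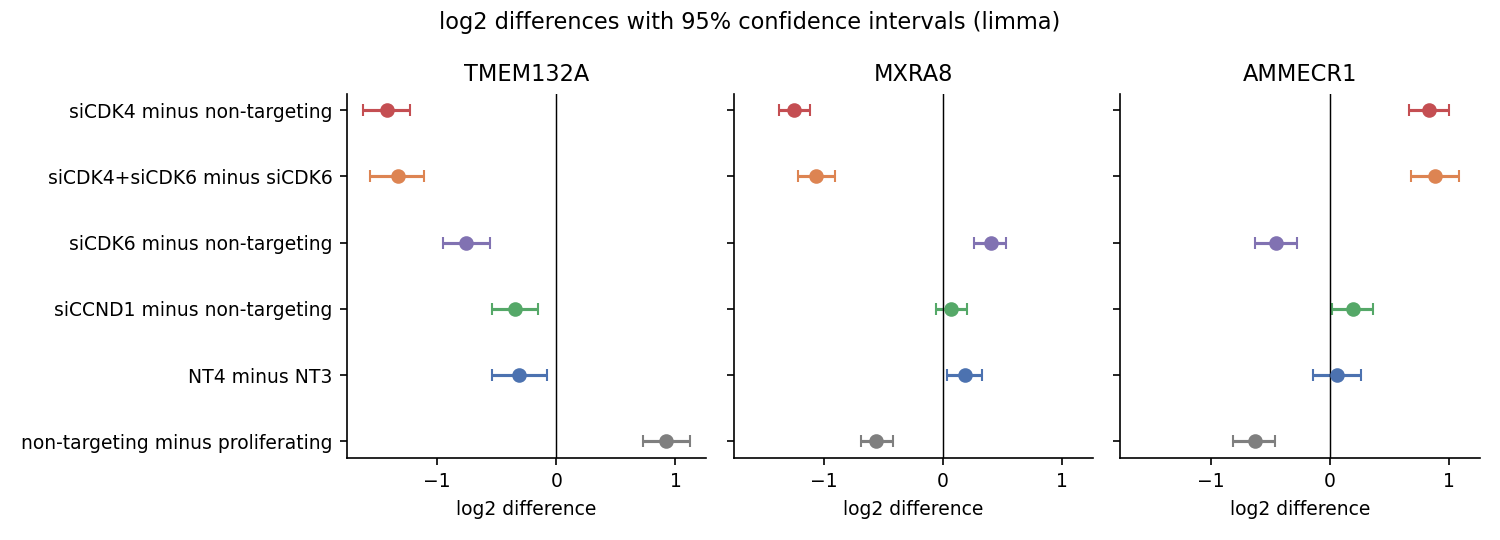
Log2 differences (x axis) of TMEM132A, MXRA8 and AMMECR1 in 6 comparisons (y axis), with limma 95% confidence intervals as bars. The CDK4 siRNA gives like values without and with the CDK6 siRNA (TMEM132A -1.42 and -1.33), and the CDK6 siRNA lowers TMEM132A (-0.76) and AMMECR1 (-0.45) and raises MXRA8 (0.40).

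Knockdown of CCND1, a cyclin partner of both kinases, left a smaller mark, with CCND1 at 11.8% of its non-targeting mean. TMEM132A was lower by -0.35 (SE 0.10, limma adjusted p = 0.00867), while 14.4% of all genes were lower by this test. Its controls are those of the choosing contrast, so this p is not independent of the choice. It was -0.19 against NT4 alone (adjusted p = 0.249) and -0.28 without CCND1 knockdown replicate 1 (adjusted p = 0.0731), neither past the threshold; over all alternatives the limma, edgeR or DESeq2 adjusted p ran from 0.00119 to 0.249. MXRA8 differed by 0.07 (SE 0.06, 95% confidence interval -0.06 to 0.20, limma adjusted p = 0.414) and AMMECR1 by 0.19 (SE 0.08, 0.02 to 0.36, limma adjusted p = 0.0886). MXRA8 had the opposite sign against NT4 alone (-0.02, adjusted p = 0.906, with 0.0863 to 0.906 over all alternatives).

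CDK6 and CCND1 knockdown, which share no library with the choosing contrast, were also compared directly. MXRA8 was 0.32 higher in CDK6 knockdown (SE 0.07, limma adjusted p = 0.00463) and AMMECR1 0.64 lower (-0.64, SE 0.10, limma adjusted p = 9.55e-05), where 5.43% of genes were higher and 6.78% lower. TMEM132A was lower by -0.41 (SE 0.11, limma adjusted p = 0.0164). This last call rested on single libraries, since it missed the threshold without CCND1 knockdown replicate 3 (-0.32, adjusted p = 0.11), CDK6 knockdown replicate 1 (-0.35, 0.0907) or CDK6 knockdown replicate 3 (-0.37, 0.0805), with 0.00226 to 0.11 over all alternatives. The libraries did not overlap for any of the 3 genes, as was so for 18.9% of genes on the lower and 17.6% on the higher side.

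The non-targeting siRNAs were compared to measure how far controls alone move these genes. Both are the controls of the choosing contrast, so the p-values here are not independent of the choice. AMMECR1 differed by 0.06 between NT4 and NT3 (SE 0.10, 95% confidence interval -0.14 to 0.26, limma adjusted p = 0.676) and MXRA8 by 0.18 (SE 0.07, limma adjusted p = 0.0736). TMEM132A was lower with NT4 by -0.31 (SE 0.11, limma adjusted p = 0.0387), and 13.1% of genes were lower by this test. In either direction, edgeR called 3227 of the 11579 tested genes between NT4 and NT3. It called 1934 between CDK4 knockdown and the mean of NT3 and NT4. The call for TMEM132A was lost without NT3 replicate 1 (-0.32, adjusted p = 0.0653), NT3 replicate 2 (-0.31, 0.0523), NT4 replicate 1 (-0.26, 0.152) or NT4 replicate 3 (-0.26, 0.148), with 0.0111 to 0.152 over all alternatives. MXRA8 passed without NT3 replicate 3 (0.21, adjusted p = 0.0287, with 0.0287 to 0.219 over all alternatives). Against NT3 alone TMEM132A was -1.58 in CDK4 knockdown and against NT4 alone -1.27, and in the combined knockdown -2.25 and -1.93.

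The members were also compared between irradiated controls and proliferating cells, to place the siRNA values on the scale of senescence. The non-targeting libraries are those of the choosing contrast, so these p-values too are not independent of the choice. In non-targeting cells TMEM132A rose by 0.92 (SE 0.10, limma adjusted p = 1.83e-08). MXRA8 and AMMECR1 were lower by -0.56 (SE 0.06, limma adjusted p = 8.19e-08) and -0.63 (SE 0.08, limma adjusted p = 7.62e-07). All 6 control libraries lay outside the proliferating range for each gene, which held for 25.2% of genes on the higher and 28.9% on the lower side. By this test 32.6% of genes were higher and 36.1% lower, so a call here is common. Setting every library to the same median gene moved the median difference of all genes by 0.11 and gave 1.04, -0.44 and -0.52 for TMEM132A, MXRA8 and AMMECR1. With CDK4 siRNA the members stood as follows against proliferating cells, as a description. TMEM132A was at 71.1% of the proliferating mean in CDK4 knockdown and 44.7% in the combined knockdown, MXRA8 at 28.7% and 42.7%, and AMMECR1 at 114.7% and 86.1%. TMEM132A, higher in senescent controls, was thus below the proliferating level with CDK4 siRNA, whereas MXRA8, lower in senescent controls, was lower again.

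The genes whose pattern lay closest to each member were found by the root-mean-square difference of log2 values over the 18 irradiated libraries, each gene centred on its own mean. The median of this difference over genes was 0.818 for TMEM132A, 0.607 for MXRA8 and 0.463 for AMMECR1. Closest to TMEM132A was CDK2, the kinase that partners cyclins E and A, at 0.278, followed by NETO2 and TRIM25 (0.392). CDK2 averaged 1168.8 with NT3, 919.4 with NT4, 880.2 in CCND1 knockdown, 484.6 in CDK6 knockdown, 504.1 in CDK4 knockdown and 281.2 in the combined knockdown. Unlike TMEM132A, it was highest in proliferating cells, at 2286.2, and so was NETO2, at 789.2. TRIM25, as TMEM132A, was higher with NT3 (2823.7) and NT4 (2855.2) than in proliferating cells (1914.9). TRIM25 averaged 1788.5 in CDK4 knockdown, where its libraries overlapped with proliferating cells, and 1215.1 in the combined knockdown. Closest to MXRA8 were TOMM70 (0.220), AAR2 (0.246) and GOLM1 (0.253), the 3 genes ranked just below it among the falls with CDK4 siRNA. TOMM70 averaged 912.1 in CDK4 knockdown and 1101.3 in the combined knockdown, against 2088.4 with NT3, 1999.9 with NT4, 1961.2 in CCND1 knockdown and 1979.7 in CDK6 knockdown. MXRA8, by contrast, averaged 4622 in CDK6 knockdown, above its controls. Closest to AMMECR1 were the DNA repair glycosylase TDG (0.206), the endoplasmic reticulum protein ERLIN2 (0.214) and TNFRSF10B, a TRAIL death receptor (0.230). TDG averaged 691.2 in CDK4 knockdown and 694.3 in the combined knockdown, against 496.6 with NT3, 433.1 with NT4 and 387.2 in CDK6 knockdown. TNFRSF10B averaged 6915.1 in CDK4 knockdown but 5395.5 in the combined knockdown, beside 5433.4 with NT3 and 5479.7 with NT4. In CDK6 knockdown TNFRSF10B averaged 3960.8. AMMECR1 was above its controls in both groups with CDK4 siRNA, as were TDG and ERLIN2. ERLIN2 averaged 2343.0 in CDK4 knockdown and 2303.4 in the combined knockdown, against 1881.9 with NT3, 1909.1 with NT4 and 1384.3 in CDK6 knockdown. These genes were picked from the same values, so their likeness is not tested. Between the members the difference was 0.593 for TMEM132A with MXRA8, 0.951 for MXRA8 with AMMECR1 and 1.065 for TMEM132A with AMMECR1.

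**Figure D4:**
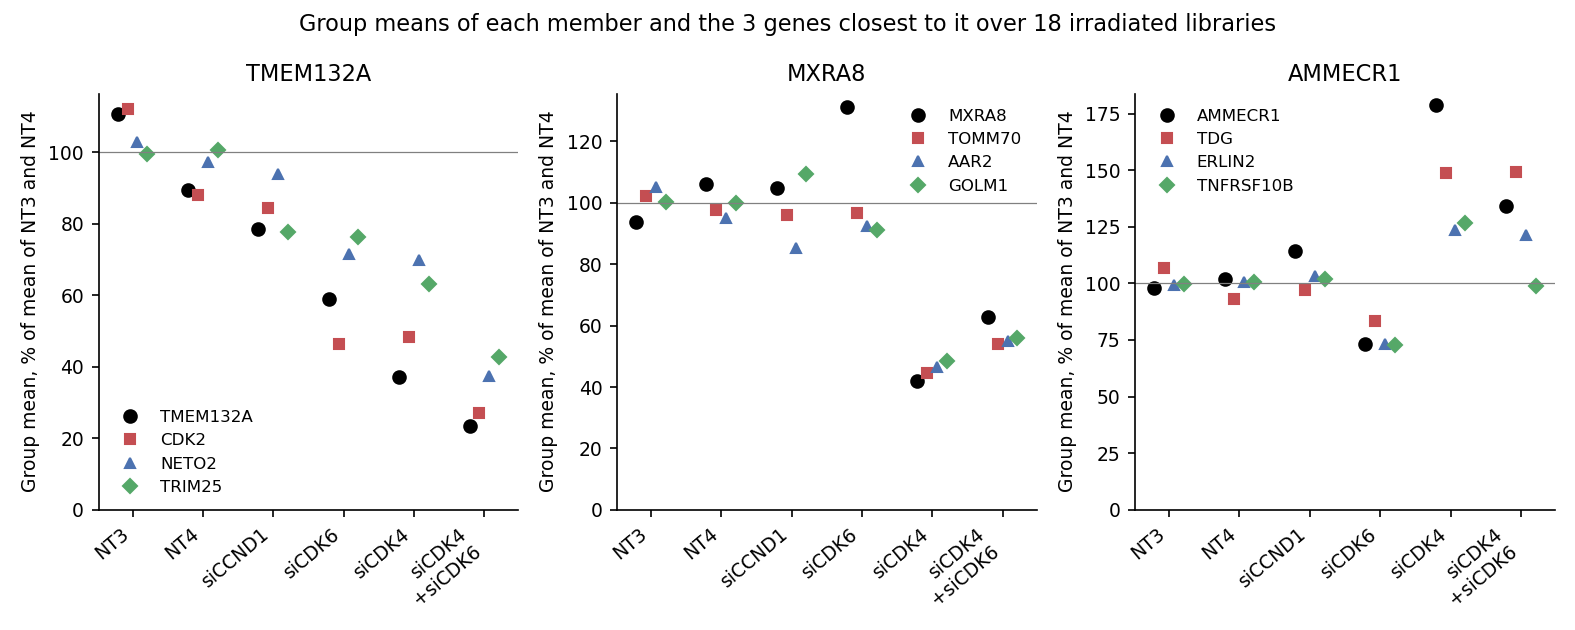
Group means as a percentage of the mean of NT3 and NT4 (y axis, from 0) for each member (black circles) and the 3 genes closest to it (coloured symbols), in the 6 irradiated groups (x axis). TOMM70, AAR2 and GOLM1 lie low with MXRA8 in both groups with CDK4 siRNA but below 100% in CDK6 knockdown, where MXRA8 is at 131.2%.

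Of 6 relatives of the members, 3 were tested. In the combined knockdown against CDK6 knockdown none passed by limma, and none had an unadjusted p under 0.05 by limma or an adjusted p under 0.05 by edgeR or DESeq2. AMMECR1L, the paralogue of AMMECR1, differed by -0.16 (SE 0.08), MXRA5, which shares with MXRA8 a name given for matrix remodelling, by 0.01 (SE 0.13), and TMEM132B by -0.25 (SE 0.43). In CDK4 knockdown against the controls AMMECR1L was lower (-0.22, SE 0.07, limma adjusted p = 0.0412) and MXRA5 higher (0.55, SE 0.11, 0.002), each opposite in sign to its member. MXRA5 also differed between the controls, at 452 ± 107.9 with NT3 and 916 ± 85.2 with NT4 (log2 difference 1.04, SE 0.13, limma adjusted p = 4.35e-06). In CDK4 knockdown MXRA5 was at 929 ± 49.1, above its NT3 values but near its NT4 values. TMEM132B, at 2.93 ± 2.67 in proliferating cells (0 to 6 reads) and 51.5 ± 23.5 (SD, n = 6) in non-targeting cells, was the only TMEM132 gene besides TMEM132A above the filter. TMEM132C, TMEM132D and TMEM132E had at most 3 reads in any library.

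Partners of TMEM132A were examined through lists of WNT pathway genes and of chaperones and unfolded protein response genes. Of 40 WNT genes, 35 were tested, and in the combined knockdown against CDK6 knockdown 2 were higher and 3 lower by limma, with a median of 0.00, equal to that of all genes. Over all genes 6.05% were higher and 6.94% lower, so about as many of the 35 passed as of genes at large. The WNT antagonist DKK1 fell by 0.42 (-0.42, SE 0.10, limma adjusted p = 0.00456), and the signal transducer DVL2 (-0.34, SE 0.08, 0.00752) and the secreted inhibitor SFRP1 (-0.24, SE 0.06, 0.00943) were lower. The receptor FZD4 was higher (0.44, SE 0.12, limma adjusted p = 0.0216). In CDK4 knockdown against the controls, 3 of the 35 were higher and 3 lower, where 8.46% and 7.55% of all genes were. There DKK1 (-0.43, SE 0.08) and DVL2 (-0.26, SE 0.07) were again lower, SFRP1 was higher (0.62, SE 0.05) and FZD4 was at -0.20 (SE 0.11, limma adjusted p = 0.231). WLS differed by -0.06 (SE 0.05, 95% confidence interval -0.16 to 0.05, limma adjusted p = 0.504) in the combined knockdown against CDK6 knockdown.

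All 23 chaperone and unfolded protein response genes were tested. In the combined knockdown against CDK6 knockdown 5 were higher and 0 lower by limma, with 1 lower at an unadjusted p under 0.05 and 0 lower by edgeR or DESeq2; the median was 0.08 against 0.00 for all genes. HSPA5, the chaperone reported to bind TMEM132A, was higher by 0.28 (SE 0.07, limma adjusted p = 0.0116), at 16366 ± 468 against 13502 ± 452 (SD, n = 3 each). HYOU1, PDIA4 and PDIA6, which fold proteins in the endoplasmic reticulum, were higher by 0.28 (SE 0.06, limma adjusted p = 0.00137), 0.22 (SE 0.05, 0.00852) and 0.19 (SE 0.05, 0.0229). Over all genes 6.05% were higher and 6.94% lower. In CDK6 knockdown against the controls 15 of the 23 were lower and 3 higher, with a median of -0.30, where 20.8% of all genes were lower and 21.1% higher. HSPA5 was at -0.32 there (SE 0.06, limma adjusted p = 0.000249). In the combined knockdown against the controls the median of the 23 was -0.20, against 0.00 for all genes. HSPA5 was at -0.05 in that comparison (SE 0.06, limma adjusted p = 0.58). In CDK4 knockdown against the controls 6 were lower and 1 higher, where 7.55% of all genes were lower and 8.46% higher. There HYOU1 was lower (-0.14, SE 0.05, limma adjusted p = 0.0443), opposite to its direction above. PDIA4 was at -0.11 (SE 0.05, limma adjusted p = 0.111), HSPA5 at 0.12 (SE 0.06, 0.197) and PDIA6 at 0.13 (SE 0.05, 0.0645), none past the threshold.

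For MXRA8 the list held other alphavirus receptors and the subunits of the integrin it binds. LDLRAD3 was not analysed here, and the remaining 5 of 6 genes were tested. In the combined knockdown against CDK6 knockdown none passed by limma, 2 had an unadjusted p under 0.05 (1 higher, 1 lower), and 1 was lower by edgeR and by DESeq2. The integrin subunit ITGB3 differed by -0.29 (SE 0.10, limma adjusted p = 0.0609) and ITGAV by 0.08 (SE 0.13, limma adjusted p = 0.759). In CDK6 knockdown against the controls 4 of the 5 were higher, among them ITGB3 by 0.81 (SE 0.09, limma adjusted p = 2.68e-07) and ITGAV by 0.50 (SE 0.11, limma adjusted p = 0.00112), where 21.1% of all genes were higher.

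Genes next to the members on the chromosome were examined to see whether a region moved with them. Of the 4 nearest listed genes of each member by RefSeq (GRCh38.p14), 10 were tested in all. In the combined knockdown against CDK6 knockdown none passed by limma or edgeR, while 3 had an unadjusted limma p under 0.05 (SLC15A3, AURKAIP1 and RTL9) and 1, SLC15A3, passed by DESeq2. In CDK4 knockdown against the controls 1 of the 10 passed by limma: ACSL4, 460.9 kb from AMMECR1, was higher by 0.29 (SE 0.06, limma adjusted p = 0.00276), in the direction of AMMECR1. In the combined knockdown against CDK6 knockdown ACSL4 differed by 0.06 (SE 0.07, limma adjusted p = 0.666). TMEM109, 1.02 kb from TMEM132A, differed by 0.02 (SE 0.07, limma adjusted p = 0.877). DVL1, 3.27 kb from MXRA8, differed by 0.11 (SE 0.08, limma adjusted p = 0.388), and TMEM164, 9.94 kb from AMMECR1, by 0.14 (SE 0.19, limma adjusted p = 0.675). SLC15A3 overlaps TMEM132A and RTL9 overlaps AMMECR1 in RefSeq, and whether counting used strand is not given in the sources used here, so reads in the shared stretches cannot be told apart. SLC15A3 had at most 428 reads and RTL9 at most 32 in any library, against 545 to 4165 for TMEM132A. SLC15A3 differed by -0.59 (SE 0.21, limma adjusted p = 0.0688).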

How the data were processed

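IMR90 RNA was poly(A)-captured and sequenced in 21 libraries. The submitters' processing notes name Trimmomatic 0.38.1, HISAT2 2.2.1, featureCounts 2.0.3, DESeq2 2.11.40.8 and the build hg38 (GRCh38), without settings. The authors deposited 1 signal for each gene in each library, headed as counts. Within a tolerance of 0.1 read, all values were whole multiples of a step that differed by library (0.709 to 1.21), as read counts divided by a size factor are, and reads were recovered. The table ends at Entrez ID 140467. Columns name the group but no replicate, so replicate numbers are names in column order. The labels do not say that libraries came from separate cultures, so p-values measure the spread between these libraries, which may be technical.

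Testing was limited to the 11579 genes reaching 10 in 3 or more libraries. Values were put on the scale log2(value + 1) and fitted in limma 3.58.1 (R 4.3.3), with 1 mean per group, trended empirical Bayes variance over all 7 groups, two-sided tests and Benjamini-Hochberg adjustment over all tested genes within a comparison, at a threshold of 0.05. On simulated reads for the combined against CDK6 knockdown over 11579 genes, 200 genes were changed, none of them of low mean value. Of these, 98.3% of genes set to -1 (log2), 83.8% at -0.5, 70% at 0.5 and 98.1% at 1 were recovered. Recovery of genes near the filter was not measured. Alternatives were edgeR 4.0.16 and DESeq2 1.42.0 on recovered reads, pseudocounts of 10 and 0.1, no filter, median centring, the compared groups alone, either control alone, and each library left out. Runs of header numbers as a block were added after seeing the data.

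The members and the gene lists were chosen with earlier results of these data known. Besides them, the text names the targets, the relatives, the 3 genes closest to each member, the 3 ranked next in the CDK4 contrast, the 2 nearest listed genes on each side, and up to 4 genes of a list with the smallest p in the combined against CDK6 comparison; list partners WLS, ITGAV and ITGB3 were named after their values were seen.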

Additional observations from a re-analysis of the deposited data

How the results depend on the processing

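Across the members and the 6 tested comparisons, 281 of 294 alternative values kept their direction and their side of the threshold. In the combined against CDK6 knockdown all 14 alternatives of each gene did so, with log2 differences of -1.42 to -1.23 for TMEM132A, -1.10 to -1.02 for MXRA8 and 0.80 to 0.96 for AMMECR1, and adjusted p of at most 2.75e-05. The same held for CDK6 knockdown and for proliferating cells against the non-targeting controls. These alternatives refit the same libraries, and results from some of these libraries were known when the members were chosen. Their agreement is therefore not independent evidence about the members. For NT4 against NT3, TMEM132A missed the threshold with no filter (-0.31, limma adjusted p = 0.0543) and in a fit of these groups alone (-0.31, 0.101), where more genes or fewer samples entered, and over single left-out libraries ran from -0.42 to -0.26 (adjusted p over all alternatives up to 0.152); MXRA8 ran from 0.13 to 0.21. For CCND1 knockdown, TMEM132A ran from -0.44 to -0.28 over left-out libraries and missed the threshold against NT4 alone (-0.19), and MXRA8, never past it, changed sign against NT4 alone (-0.02). CDK6 against CCND1 knockdown ran from -0.52 to -0.32 for TMEM132A over left-out libraries. Without a test, TMEM132A in CDK4 knockdown moved to -1.58 (NT3 alone) and -1.27 (NT4 alone), and in the combined knockdown to -2.25 and -1.93. MXRA8 in CDK4 knockdown ran from -1.36 (without CDK4 knockdown replicate 3) to -1.19 over left-out libraries. Over all alternatives it ran from -1.36 to -1.16. Except where shown, the cause was not tested.

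No paired analysis was possible because the columns carry no replicate numbers, so libraries cannot be tied to the numbers in the labels. Chosen after seeing the data, a block on header numbers was tried instead: they form 3 runs with 1 library of each irradiated group; deviations from group means correlated across genes at a median of 0.037 within runs and -0.017 between them, 13 of 18 libraries correlated best with their own run, and the block changed no member's call in the 5 tested comparisons among irradiated groups, the ones it was run for. Depth limits low genes such as TMEM132B more than the members, which had at least 290 reads in every library.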
